A study of Homo sapiens with 6 samples.

Results

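The replication-dependent histone genes supply the histones that package newly made DNA. The set was defined by gene symbol as the protein-coding genes of the GENCODE annotation on hg19 named H2AC, H2BC, H3C or H4C with a number, and H1-1 to H1-6. HIST1H4B and HIST2H2AA3, which carry older names of the same family in this annotation, were included. The rule found 66 of the 19785 protein-coding genes: 6 genes of the linker histone H1, 17 of H2A, 16 of H2B, 13 of H3 and 14 of H4. H2BC7, H2BC8 and H4C6 were not analysed here. A gene was counted as bound in a library when a Myc peak had its summit within 1 kb of a basic transcription start site (TSS) of the gene, and such a peak is called a promoter peak.

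The study asked whether TXNIP, an arrestin-family protein that restrains glucose uptake and binds thioredoxin, affects where the transcription factor Myc sits on the genome. Myc was immunoprecipitated with antibody D3N8F from formaldehyde-fixed MDA-MB-231 cells, a human triple-negative breast cancer line, and the recovered DNA was sequenced (ChIP-seq). There were 2 parental libraries and 2 libraries of TXNIP knockout cells (TKO), a derivative that the study made with CRISPR/Cas9 and grew out from single cells. Both lines were grown in the same serum-containing medium with no other treatment, and Myc itself was not altered in either. An effect of the knockout and an effect of clonal isolation cannot be told apart, and peaks of Myc offer no check of the deletion.

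Replication-dependent histone genes are short, lack introns as a rule and lie in clusters, where many H2A and H2B genes stand head to head and share a promoter. They are transcribed in S phase at nuclear sites called histone locus bodies, with NPAT as a coactivator that cyclin E and CDK2 phosphorylate. Their messages end in a stem-loop bound by SLBP in place of a poly(A) tail. Myc binds DNA with its partner MAX, best at the E-box CACGTG, and is also found at many active promoters that lack this sequence.

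The parental lists held 3720 and 5719 peaks and the TKO lists 27213 and 25887. The lowest -log10 q-value in each list was between 2.03 and 2.07. Depth was recovered from the fold and p-value of each peak, as explained with the processing, and came to 26.4 and 22.2 M reads in the parental libraries and 19.9 and 13 M reads in the TKO libraries. The parental lists were therefore shorter although their libraries were deeper.

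Myc promoter peaks were found at few histone genes in parental cells and at most of them in TKO cells. In parental replicates 1 and 2, 5 and 8 of the 66 genes were bound (7.58% and 12.1%), where 12.2% and 12.9% of all protein-coding genes were. In TKO replicates 1 and 2, 40 and 39 were bound (60.6% and 59.1%), where 49.1% and 49.7% of all genes were. The mean was 6.50 ± 2.12 genes in parental libraries and 39.5 ± 0.707 in TKO libraries (SD, n = 2), a ratio of 6.08 against 3.94 over all genes. Every TKO library lay above every parental library, and an exact two-sided permutation test returned p = 0.333, below which no comparison of 2 and 2 libraries can go. Whether the ratio of the histone genes differs from that of all genes was not tested.

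Because head-to-head genes share peaks, peaks were counted as well as genes. The parental libraries held 4 and 9 histone promoter peaks and the TKO libraries 48 and 50, a ratio of 7.54 (exact two-sided permutation test, p = 0.333). Without parental replicate 2 this ratio was 12.2. Both directions turned when only the strongest 3720 peaks by fold were taken from each list. Then 5 and 3 histone genes were bound in parental and 0 and 2 in TKO cells, a ratio of 0.250. Of all 19785 genes, 2418 and 1783 were bound in parental and 2746 and 2831 in TKO cells, a ratio of 1.33. This selection reached down to a fold of 2.40 and 4.62 in the parental lists but only to 8.99 and 8.88 in the TKO lists. With the same minimum fold of 5 in every list, 3 and 3 of the 66 genes were bound in parental and 17 and 29 in TKO libraries, a ratio of 7.67. Of all 19785 genes, 1619 and 1531 were bound in parental and 7498 and 8136 in TKO libraries at that minimum, a ratio of 4.96. More Myc at these genes and a more efficient immunoprecipitation in the TKO libraries cannot be told apart from lists of peaks.

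In both parental libraries 4 genes were bound (6.06% of the set, 9.36% of all genes). In both TKO libraries 37 were bound (56.1%, 45.2% of all genes), and 28 of these had no peak in either parental library (42.4%, 29.8% of all genes). No library held a promoter peak at 24 genes (36.4%, 46.3% of all genes). The remaining 5 genes were bound in a single TKO library: H2BC18, H2AC17 and H2BC17 in replicate 1, and H3C2 and H3C12 in replicate 2. No gene was bound in a parental library and free of peaks in TKO cells.

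**Figure D1:**
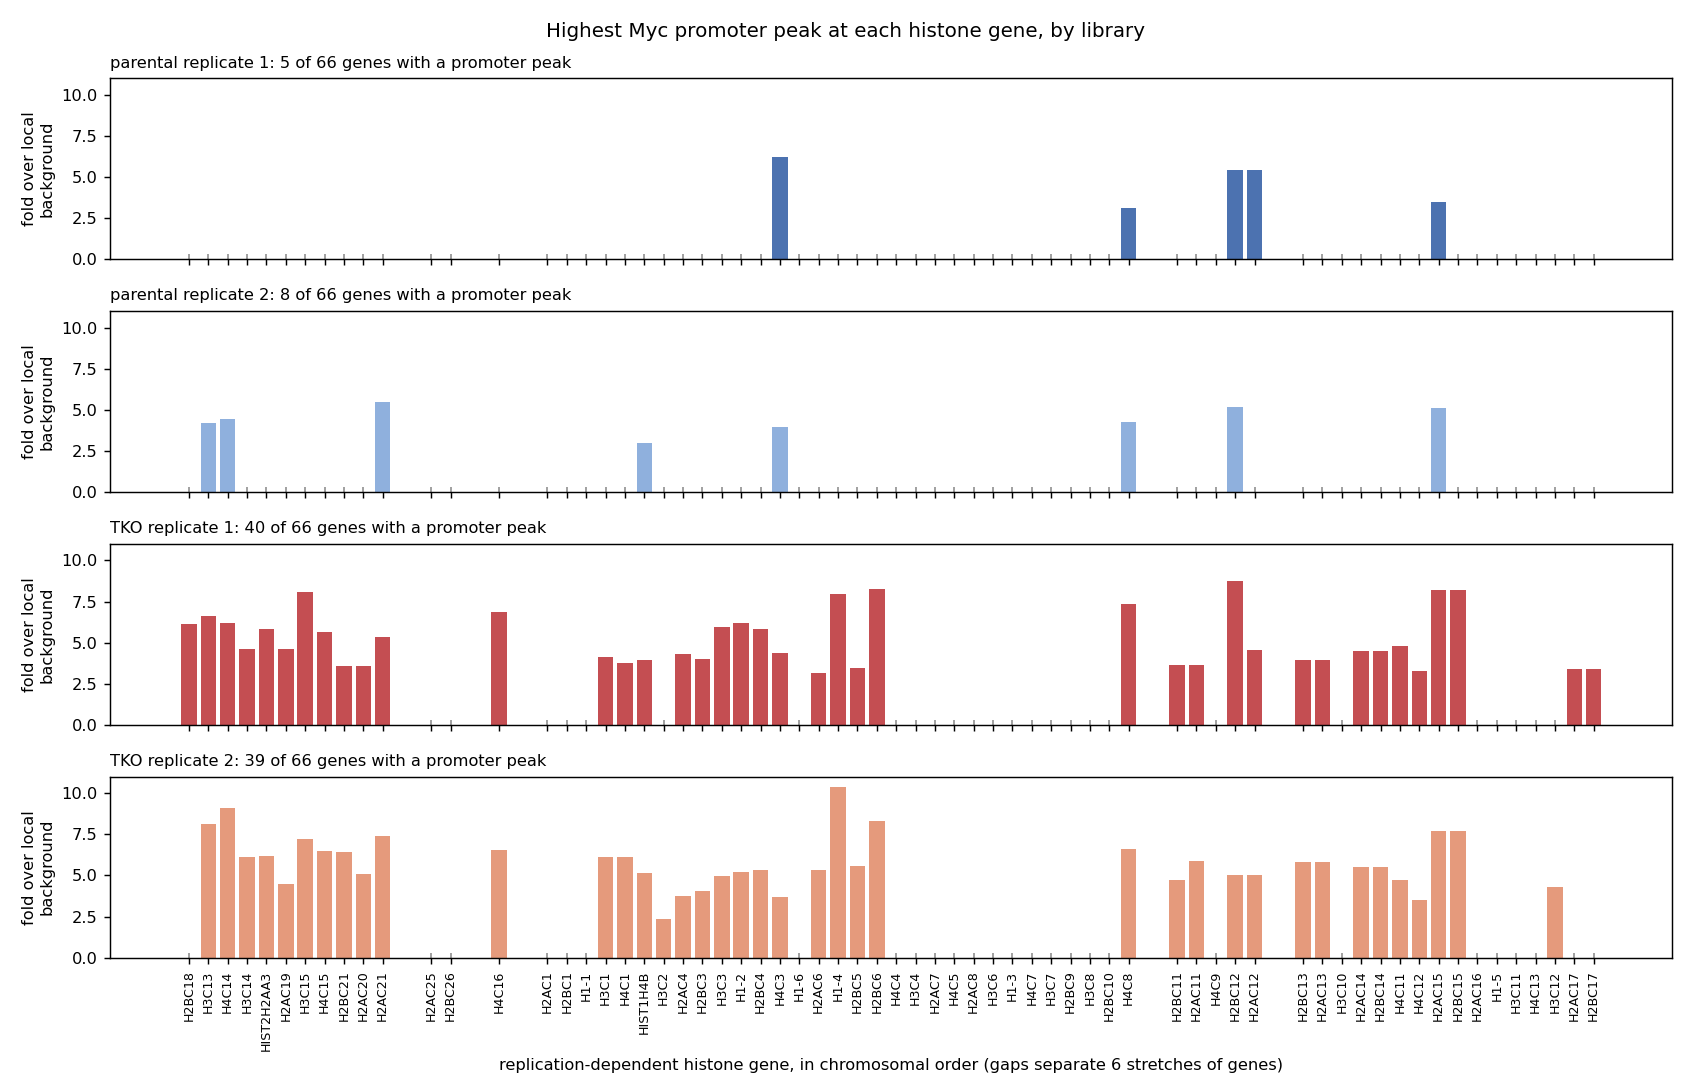
Highest fold of a Myc promoter peak (vertical axis, ratio of summit reads to local background) at each of the 66 histone genes in chromosomal order (horizontal axis), with 1 panel per library and a grey tick where a gene had no promoter peak. Parental panels show 5 and 8 bars and TKO panels 40 and 39, with an empty run of 12 genes from H4C4 to H2BC10 in all 4 panels.

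All 5 classes had bound members in TKO cells. Linker histone H1 genes, whose products hold neighbouring nucleosomes together, had no peak in parental cells, and 2 of 6, H1-2 and H1-4, were bound in each TKO library. Of the 17 H2A genes, 2 and 2 were bound in parental and 12 and 11 in TKO libraries. Of the 16 H2B genes, 1 and 1 were bound in parental and 12 and 10 in TKO libraries.

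H2A and H2B form the dimers on the outside of the nucleosome core, and H3 and H4 the tetramer at its centre. Of the 13 H3 genes, 0 and 1 were bound in parental and 5 and 7 in TKO libraries. Of the 14 H4 genes, 2 and 4 were bound in parental and 9 and 9 in TKO libraries. Differences between classes were not tested, since genes of a cluster are not independent.

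**Figure D2:**
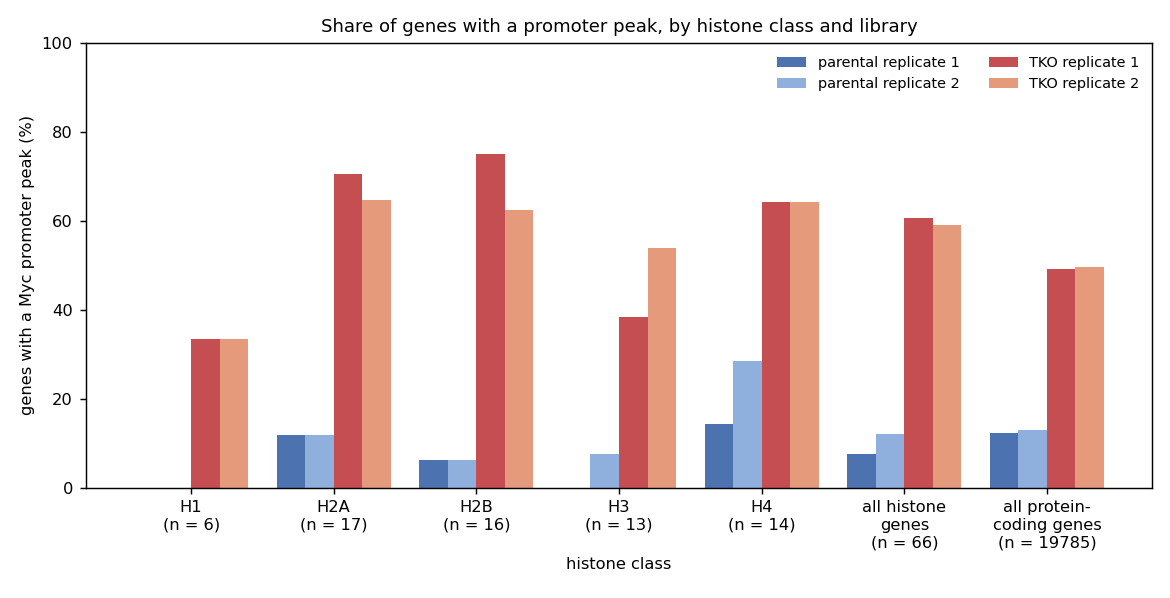
Percent of genes with a Myc promoter peak (vertical axis) in each histone class, in the whole histone set and in all protein-coding genes, with 1 bar per library (2 parental, 2 TKO). In every class with a parental bar the TKO bars are higher, and the whole set stands at 60.6% and 59.1% in TKO libraries against 49.1% and 49.7% for all genes.

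The 4 genes bound in all 4 libraries were H4C3, H4C8, H2BC12 and H2AC15, all in the chromosome 6 clusters. H4C3 (ENSG00000197061.5_6, chr6:26104161-26104565, plus strand) codes for histone H4. Its peak had a fold over local background of 6.23 and 3.99 in parental and of 4.4 and 3.69 in TKO libraries, so the fold did not separate the groups. Depth-scaled summit reads, in reads per 10 M, were 13.6 and 12.2 in parental and 23.1 and 21.5 in TKO libraries, and here both TKO libraries lay above both parental ones. The summit lay inside the coding sequence, 117 and 98 bp downstream of the TSS in the parental libraries, and 78 and 58 bp downstream in the TKO libraries.

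H4C8 (ENSG00000158406.6_8, chr6:26277837-26285866, minus strand) also codes for H4. Its fold was 3.11 and 4.29 in parental and 7.37 and 6.61 in TKO libraries, with 13.6, 18.9, 24.1 and 28.4 reads per 10 M in the same order. The TKO libraries were above the parental ones on both scales. The summit was at -23 and -18 bp from the TSS in parental cells and at 211 and 208 bp, within the coding sequence, in TKO cells.

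H2BC12 (ENSG00000197903.8_7, chr6:27114140-27114634, minus strand) codes for H2B and stands head to head with H2AC12. The site beyond its 3′ end had a fold of 5.41, 5.15, 8.73 and 4.48 in parental replicates 1 and 2 and TKO replicates 1 and 2, and 16.7, 13.5, 29.6 and 16.9 reads per 10 M. The groups overlapped by fold, and by reads TKO replicate 2 was just above parental replicate 1. In parental replicate 1 the summit also fell within 1 kb of the TSS of H2AC12, at -988 bp, which is why that gene counted as bound there.

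H2AC15 (ENSG00000275221.2_7, chr6:27805658-27806153, minus strand) codes for H2A and stands head to head with H2BC15. The parental peaks lay past the 3′ end of the gene, with a fold of 3.46 and 5.13 and 13.6 and 15.8 reads per 10 M. The merged site reached 6.33 and 7.05 in fold and 18 and 16.1 reads per 10 M in the TKO libraries, so that both were above the parental ones.

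For TKO replicate 2 that order rests on merging. A single wide peak of TKO replicate 1 joined 2 separate peaks of TKO replicate 2, and the value above is that of the stronger, at 221 bp in the coding sequence. The peak of TKO replicate 2 at the place of the parental summits, at 781 bp, had a fold of 3.41 and 11.5 reads per 10 M, under both parental libraries. A further peak, in the coding sequence of H2BC15, had a fold of 8.18 and 7.70 and was present in TKO libraries alone.

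Over these 4 shared sites the median was 13.6 and 14.6 reads per 10 M in parental and 23.6 and 19.2 in TKO libraries, a ratio of 1.51 (exact two-sided permutation test, p = 0.333). Over all 2631 sites with a peak in the 4 libraries the ratio was 2.38. TKO libraries were both above parental libraries at 4 of 4 histone sites, with the reservation given for H2AC15, and at 2578 of the 2631 sites. Since each site is represented by its strongest peak in a library, the reads compared at a site come from summits at different positions, which lay furthest apart at H4C8, H2BC12 and H2AC15. Reads counted at summits were extended to at most 151 bp in the parental and at least 182 bp in the TKO libraries. Longer extension lets more reads overlap a summit, and scaling by depth does not remove this. All comparisons of reads per 10 M therefore include this difference, and its share of the ratios was not tested.

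**Figure D3:**
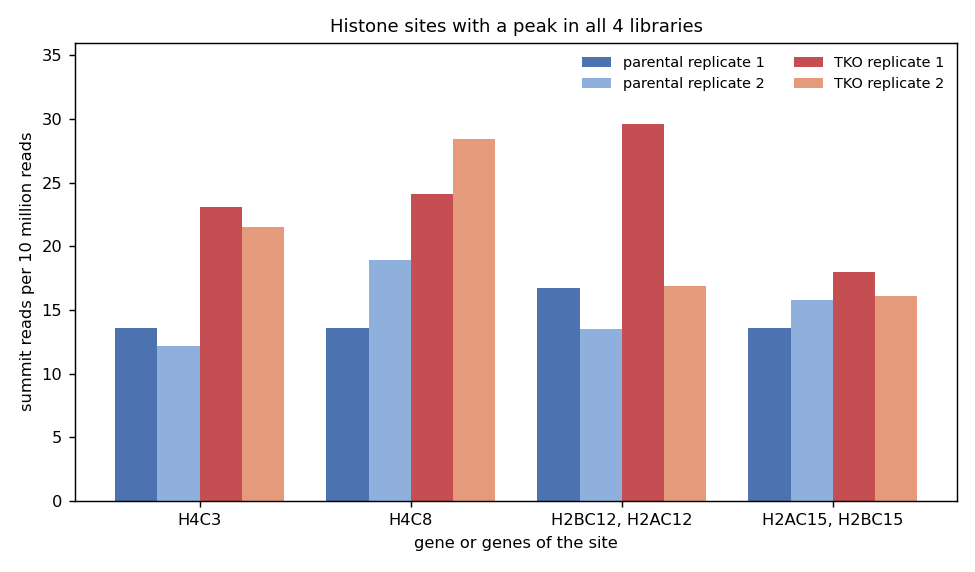
Reads at the peak summit per 10 M reads of the library (vertical axis) at the 4 histone sites with a peak in all 4 libraries, with 1 bar per library and site and no error bars because each bar is a single value. The TKO bars are highest at H4C8 and H2BC12, and at H2AC15 the libraries range from 13.6 to 18, where the bar of TKO replicate 2 is the stronger of 2 merged peaks. Bars are scaled by depth and not by the length to which reads were extended, which was greater in TKO libraries.

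The genome sequence under 3 of these summits in TKO replicate 1 is given so that the bases at the summits can be read, on the plus strand of GRCh37 with the summit in the middle of 61 bases. H4C3 lies at chr6:26104209-26104269 and H4C8 at chr6:26285521-26285581, both inside coding sequence, and the H2AC15 site at chr6:27805329-27805389, outside any protein-coding transcript. None holds a CACGTG, so no base is in capitals.
H4C3: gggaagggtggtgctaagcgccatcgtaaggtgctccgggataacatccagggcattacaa
H4C8: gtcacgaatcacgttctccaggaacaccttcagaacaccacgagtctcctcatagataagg
H2AC15: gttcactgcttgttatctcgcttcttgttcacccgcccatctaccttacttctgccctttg

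A further 5 genes were bound in a single parental library and in both TKO libraries. H2AC12 was bound in parental replicate 1 as described, and by a peak in its coding sequence, with a fold of 4.56 and 5.01, in the TKO libraries. H3C13 (fold 4.19), H4C14 (4.42), H2AC21 (5.47) and HIST1H4B (2.99) were bound in parental replicate 2. In TKO replicates 1 and 2 their folds were 6.62 and 8.14 for H3C13, 6.17 and 9.12 for H4C14, 5.35 and 7.40 for H2AC21, and 3.92 and 5.15 for HIST1H4B. The H2AC21 peak, with its summit at -562 bp in TKO replicate 1, also lay within 1 kb of the TSS of BOLA1, a neighbouring gene for a mitochondrial iron-sulphur cluster factor.

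Among the 28 genes bound in both TKO libraries and in no parental library, the 10 with the highest mean percentile by fold are described. The percentile places a peak among all peaks of its own library, with 100 as the strongest. H1-4 (chr6:26156557-26157343), a widely expressed linker histone gene, ranked highest with a fold of 7.97 and 10.4 and percentiles of 81.2 and 91.0. Its summits lay at 82 and 86 bp, in the coding sequence, and its reads per 10 M were 16 and 25.3. H2BC6 (chr6:26172287-26184883) followed with a fold of 8.27 and 8.31. Its summits lay at -4 and -19 bp from the upstream of its 2 start sites, and the other, at chr6:26183989, had no promoter peak.

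H2BC15 (chr6:27806323-27823487), the partner of H2AC15, had a fold of 8.18 and 7.70 at 377 and 353 bp. H4C16 (chr12:14920933-14924065) is the only member outside chromosomes 1 and 6, and had a fold of 6.87 and 6.56. H1-2 (chr6:26055968-26056698), another linker histone gene, had a fold of 6.21 and 5.21. H2BC4 (chr6:26086545-26124154) had 5.82 and 5.33, and H3C3 (chr6:26045612-26046097), an H3 gene, had 5.94 and 4.98.

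The other 3 of the 10 lie in the chromosome 1 cluster: H3C15 with a fold of 8.08 and 7.22, H4C15 with 5.63 and 6.51, and HIST2H2AA3 with 5.84 and 6.18. Around the TSS of H3C15 and H4C15 0% of the 50-base words, the length of the reads, occurred a single time in the genome, and around that of HIST2H2AA3 22.4% did. Reads at H3C15 and H4C15, and most of those at HIST2H2AA3, could not be placed by sequence alone. How the alignment treated such reads is not known here, so these 3 values may belong to the repeated copies together. H4C14, an H4 gene of the same cluster that also had 0% of such words, was bound in parental replicate 2 (fold 4.42). Whether H4C15 was free of Myc in parental cells therefore cannot be told from these reads.

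The remaining shared site, at H2BC12, is printed further on with the E-box near its summit. The window under the summit of H1-4, the gene of highest mean percentile, in TKO replicate 1 (chr6:26156609-26156669, GRCh37, plus strand, 61 bases, mostly coding), is shown for comparison with the shared sites printed above. Like those windows, it lacks a CACGTG.
H1-4: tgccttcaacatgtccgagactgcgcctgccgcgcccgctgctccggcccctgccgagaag

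Histone promoter peaks stood low in the ranking by fold of their libraries. Their median percentile was 26.8 and 24.9 in parental and 31.4 and 37.5 in TKO libraries, against 54.1 and 54.1 and against 60.1 and 60.5 for all promoter peaks. The median fold was 4.43, 4.29, 4.58 and 5.11, where all promoter peaks had 5.67, 5.39, 5.93 and 6.20. The highest was 8.73 in TKO replicate 1, at H2BC12, and 10.4 in TKO replicate 2, at H1-4.

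Only 1 of the 50 histone promoter peaks of TKO replicate 2 and 0 of the 48 of TKO replicate 1 lay at or above the 90th percentile, while 9 and 10 lay under the 10th. Ranked by p-value in place of fold, the mean of the TKO medians was 47.4 for histone peaks and 57.8 for all promoter peaks. These are descriptions of 2 libraries per line, and the difference from other promoters was not tested.

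**Figure D4:**
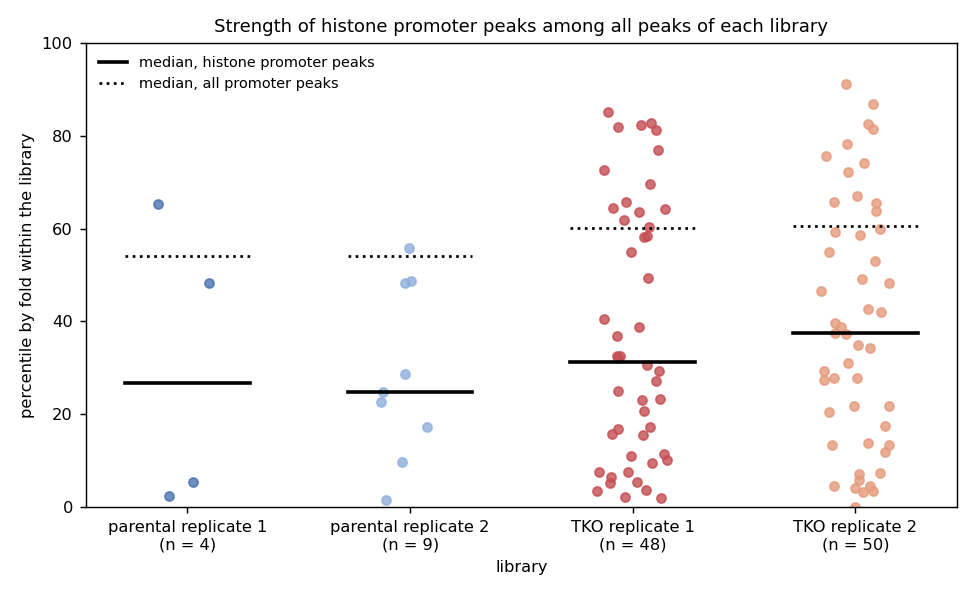
Percentile of each histone promoter peak by fold among all peaks of its library (vertical axis), with 1 point per peak, by library (4, 9, 48 and 50 peaks). Solid lines are medians of the histone peaks (26.8, 24.9, 31.4 and 37.5) and dotted lines those of all promoter peaks, which are higher in each library.

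The peaks sat inside the genes more often than around the start site. In TKO libraries 79.2% and 84.0% of the histone summits were downstream of the nearest histone TSS, where 50.3% and 50.0% of all promoter summits were downstream of theirs. The median position was 144 and 204 bp, against 1 and 0 bp. The summit fell in the coding sequence of a histone gene at 25 of 48 and 33 of 50 peaks.

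By class, the median summit lay furthest downstream for H2B, at 336 and 353 bp in TKO replicates 1 and 2. It was at 105 and 200 bp for H2A, 173 and 187 bp for H3, 99 and 72 bp for H4 and 125 and 70.0 bp for H1. Between 800 and 1000 bp lay 10.4% and 16% of the histone peaks, against 3.32% and 3.20% of all promoter peaks. Some of these summits lay past the end of a short gene, as at H3C15 (930 and 960 bp). Others lay inside a longer annotated gene, as at H4C16 (962 bp) and H2BC4 (824 and 871 bp). Among bound genes under 1 kb long, a median of 51.1% and 60.2% of the gene was covered by peaks in TKO libraries (28 and 27 genes). In parental libraries it was 8.89% and 12.3% (4 and 6 genes only). Peaks were wider throughout the TKO lists, with a median width of 330 and 344 bp over all peaks against 219 and 217 bp in the parental lists. Reads were also extended further in the TKO libraries, as stated for the shared sites, and the effect of this on width and coverage was not tested.

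**Figure D5:**
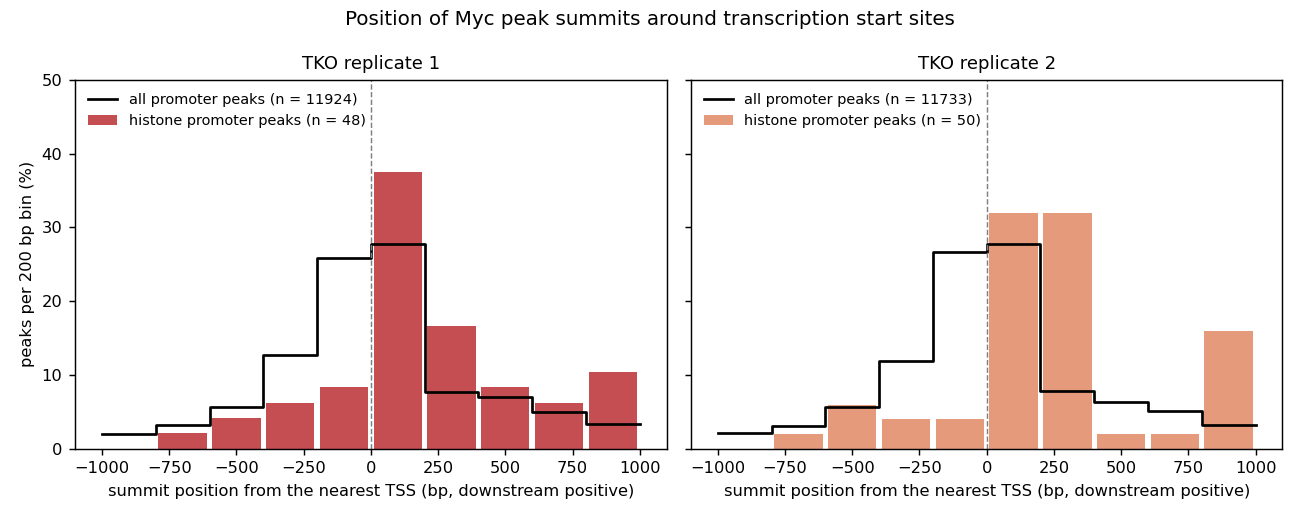
Percent of peaks (vertical axis) by position of the summit from the nearest TSS in bins of 200 bp (horizontal axis, downstream positive) for histone promoter peaks (bars) and all promoter peaks (black line) in TKO replicates 1 and 2. From 0 to 200 bp the bars reach 37.5% and 32% and exceed the line, while from -200 to 0 bp they stand at 8.33% and 4.0% against 25.8% and 26.7%.

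The canonical E-box was almost absent from the histone summits. The letters CACGTG, which read the same on both strands, occurred within 50 bp of the summit at 0 of 4 and 0 of 9 histone peaks in parental libraries and at 1 of 48 (2.08%) and 0 of 50 in TKO libraries. All promoter peaks held it at 22.2%, 18.5%, 8.17% and 7.27%. The E-box variant CACGCG, searched on both strands, was found at 8.33% and 8.0% of the histone peaks in TKO libraries and at 8.94% and 8.57% of all promoter peaks.

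The only histone summit with a CACGTG within 50 bp was that of H2BC12 in TKO replicate 1, whose E-box lies 31 bp from the summit and outside any protein-coding transcript (chr6:27113745-27113845, GRCh37, plus strand). It is shown in full because it is the only such window, with the E-box in capitals.
H2BC12: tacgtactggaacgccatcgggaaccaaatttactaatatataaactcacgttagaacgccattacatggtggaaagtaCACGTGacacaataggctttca

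The promoters themselves carry the elements that histone genes are known for. In the windows from 250 bases before to 50 bases after each basic TSS (74 windows of the 66 genes, 55869 windows of all genes), TATAAA, the core of the TATA box, was present on either strand in 66.2% of histone and 8.85% of all windows. The CCAAT box, read as CCAAT on either strand, was present in 83.8% against 33.9%. The octamer ATTTGCAT, the site of the factor OCT1 in H2B promoters, was present in 37.8% against 1.37%, and in 72.2% and 68.2% of the H2A and H2B windows, many of which overlap. No histone window held a CACGTG, which 8.21% of all windows did.

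Bound and unbound members both carried these elements. TATAAA was in 74.4% of the windows of genes bound in both TKO libraries and in 52.0% of those of genes bound in no library, the CCAAT box in 79.1% and 88.0%, and the octamer in 39.5% and 28.0%. The median GC content was 44% and 44.3%, well under the 62.7% of all promoter windows. Around the summits in TKO libraries, within 100 bp, it was 60.2% and 61.7%, close to the 63.7% and 64.2% of all promoter peaks. No test was made between the sets of windows.

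There were 11 head-to-head pairs of histone genes with start sites under 1 kb apart, 10 of them H2A with H2B and the other H3C7 with H2BC9. A peak within 1 kb of both start sites was found at 1 and 0 pairs in parental libraries and at 8 and 7 pairs in TKO libraries. The start sites of the 10 pairs of H2A with H2B lie 194 to 251 bp apart. Most summits within 1 kb of one gene therefore fall within 1 kb of the other, so these counts largely restate that the genes were bound. Other head-to-head pairs of the genome were not counted. In no library did a summit lie between the start sites of a pair, so at each bound pair the summit stood outside the shared promoter segment. The segments between the start sites of the 3 strongest pairs and of a pair with no peak are printed because they hold the promoter elements of both genes.

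On the plus strand of GRCh37 the segments are chr6:27806154-27806346 for H2AC15 and H2BC15, chr6:27114635-27114884 for H2BC12 and H2AC12, chr6:26124155-26124399 for H2BC4 and H2AC6, and, with no peak in any library, chr1:228645575-228645803 for H2AC25 and H2BC26. Capitals mark the TATA box core, the CCAAT box and the octamer, as spelled out above, on either strand.
H2AC15 and H2BC15: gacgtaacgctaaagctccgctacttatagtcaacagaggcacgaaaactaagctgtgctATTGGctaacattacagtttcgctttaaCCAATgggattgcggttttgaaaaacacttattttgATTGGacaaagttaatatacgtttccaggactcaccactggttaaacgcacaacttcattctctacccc
H2BC12 and H2AC12: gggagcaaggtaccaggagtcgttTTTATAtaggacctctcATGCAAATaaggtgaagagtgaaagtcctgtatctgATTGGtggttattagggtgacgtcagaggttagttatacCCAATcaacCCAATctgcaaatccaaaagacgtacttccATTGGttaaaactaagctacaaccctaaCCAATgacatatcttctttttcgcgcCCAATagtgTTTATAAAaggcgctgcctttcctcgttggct
H2BC4 and H2AC6: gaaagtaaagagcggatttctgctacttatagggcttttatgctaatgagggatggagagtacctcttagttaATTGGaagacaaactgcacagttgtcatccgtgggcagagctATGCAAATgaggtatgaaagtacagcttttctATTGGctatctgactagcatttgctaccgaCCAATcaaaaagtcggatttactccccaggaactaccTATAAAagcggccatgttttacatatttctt
H2AC25 and H2BC26: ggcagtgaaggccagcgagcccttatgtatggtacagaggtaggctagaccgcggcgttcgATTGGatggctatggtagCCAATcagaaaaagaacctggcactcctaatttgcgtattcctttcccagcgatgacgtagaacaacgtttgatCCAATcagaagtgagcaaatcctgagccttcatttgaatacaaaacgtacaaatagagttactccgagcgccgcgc

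The segment of H2BC12 and H2AC12 held 3 matches to TATAAA, 6 to CCAAT and 1 octamer, and that of H2BC4 and H2AC6 held 1, 3 and 1. The segment of H2AC15 and H2BC15 held 3 matches to CCAAT and no match to the other elements, as did the unbound segment of H2AC25 and H2BC26. A bound and an unbound pair thus held the same set of elements.

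The share of bound genes varied from stretch to stretch, and the differences were not tested. Over all genes, 12.2% and 12.9% were bound in parental and 49.1% and 49.7% in TKO libraries. In the chromosome 1 stretch at chr1:149754245-149859515 11 and 10 of 11 genes were bound in TKO libraries and 0 and 3 in parental ones. The 8 members on repeated sequence, named further on, all lie in this stretch. The pair at chr1:228622478-228650805 was not bound in any library. On chromosome 6, 14 and 15 of the 31 genes at chr6:25723625-26285866, 4 and 4 of the 5 at chr6:27093676-27115341 and 10 and 9 of the 16 at chr6:27775257-27861669 were bound in TKO libraries.

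The largest unbound group was a run of 12 neighbouring genes: H4C4, H3C4, H2AC7, H4C5, H2AC8, H3C6, H1-3, H4C7, H3C7, H2BC9, H3C8 and H2BC10. No library held a peak of any kind in the 112 kb between chr6:26172859 and chr6:26284763, which holds all 12 genes of the run. The run holds genes of all 5 classes and lies between 2 bound genes, H2BC6 on its left, with folds of 8.27 and 8.31, and H4C8 on its right, bound in all libraries. Between 93.4% and 100% of the 50-base words around these start sites occurred a single time in the genome, so reads could be placed there. Median GC content of the promoter windows was 40.3% in the run, and chromatin accessibility was not analysed here. Stretches without a peak are common in these lists: 4879 were at least as long, and 41 of them held at least 13 protein-coding genes. That is the number of the run with ENSG00000282988, and it leaves out H2BC6, whose other start also lies in the 112 kb.

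A shorter run of 4 genes, H2AC16, H1-5, H3C11 and H4C13, lay in 51.2 kb with no peak, next to the bound gene H2BC15. The other unbound members were H2AC25, H2BC26, H1-1, H4C9, H3C10, H2AC1, H2BC1 and H1-6. Of these, H2AC1, H2BC1 and H1-6 code for histones of the testis. H4C9 and H3C10 were flanked by bound genes and had 11.8 kb and 5.74 kb without a peak around them.

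Repeated sequence bears on the chromosome 1 cluster. At 8 members under 50% of the 50-base words within 1 kb of the TSS occurred a single time in the genome: H3C14, H3C15, H4C14 and H4C15 (0%), H2AC19 (12%), HIST2H2AA3 (22.4%), H3C13 (29.1%) and H2BC18 (35.0%). All 8 were bound in at least 1 TKO library. Without them 32 and 32 of 58 genes were bound in TKO libraries, where 49.1% and 49.7% of all genes were. In parental libraries 5 and 6 were bound, where 12.2% and 12.9% of all genes were. The ratio was 5.82, against 3.94 over all genes.

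Merged over libraries, peaks formed 56 histone sites. Of these, 4 had a peak in all libraries (7.14%, 7.87% of all 33436 sites), 31 in both TKO libraries and no parental library (55.4%, 40.3% of all sites) and none in both parental libraries alone. The other 21 had peaks in other combinations of libraries (37.5%, 51.7% of all sites). All sites include those far from any start site, so these shares do not set promoters against promoters. At the 31 sites of TKO cells no parental value can be given, since a list of peaks holds no value where no peak was found.

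Some calls lay close to the 1 kb limit, counted from any start site of a gene. Just inside it were the summits at -988 bp from H2AC12 in parental replicate 1 (fold 5.41), 955 bp from H2BC12 in parental replicate 2 (5.15), -997 bp from H2BC5 in TKO replicate 1 (3.46) and -998 bp from H4C1 in TKO replicate 2 (6.13). The calls of H2AC12, H2BC12 and H2BC5 in those libraries rested on these summits alone, while H4C1 had other peaks closer to its start. Just outside, measured from the nearest histone start site, lay a summit at -1021 bp from H4C8 in TKO replicate 1 (9.78) and at 1057 bp from H2BC17 in TKO replicate 2 (4.6). With a limit of 500 bp the numbers were 2 and 5 in parental and 35 and 37 in TKO libraries, a ratio of 10.3. Over all genes that limit gave 2172 and 2297 in parental and 8813 and 8896 in TKO libraries, a ratio of 3.96.

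Related genes outside the set were counted in the same way, and their numbers stand against the 12.2% and 12.9% of all genes bound in parental and the 49.1% and 49.7% bound in TKO libraries. Of 12 genes for replication-independent variants, 1 and 1 were bound in parental and 7 and 8 in TKO libraries. H2AX, whose phosphorylated form marks DNA breaks, was bound in all 4, with a fold of 3.27, 3.21, 6.98 and 6.73. H2AJ, MACROH2A2 and H3-5 had no promoter peak in any library.

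Of 19 genes for histone transcription and message processing, 6 and 6 were bound in parental and 17 and 17 in TKO libraries. NPAT, the coactivator of histone genes, had a fold of 4.51, 4.19, 9.56 and 12.5. NCBP1 and NCBP2 form the cap-binding complex. NCBP1 had a fold of 4.13, 4.86, 14.9 and 9.17, and NCBP2 had 12.3, 10.1, 23.2 and 24.1. CDK2, the kinase that acts on NPAT, was bound in no library.

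Of 20 histone chaperones and assembly factors, 7 and 7 were bound in parental and 18 and 18 in TKO libraries. SUPT16H, a subunit of the chaperone FACT, had a fold of 12.3, 11.3, 19.9 and 12.5. IPO4, an importin that carries histones to the nucleus, had 10.1, 9.12, 28.4 and 18.2. DNAJC9, a histone co-chaperone, had 9.24, 5.24, 14.1 and 10.4.

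NAP1L1 and NAP1L4, chaperones of H2A and H2B, were bound in all libraries too, with a fold of 6.32, 7.40, 11.2 and 10.1 and of 4.21, 3.37, 14.2 and 13.9. HIRA, a chaperone of H3.3, had 6.62, 6.32, 11.4 and 9.68, and ANP32E, which removes H2A.Z, had 6.77, 5.74, 8.56 and 9.89. CHAF1A and CHAF1B, subunits of the chromatin assembly factor that loads new H3 and H4 at the fork, were bound in no library. No comparison between these lists and the histone genes was tested.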

How the data were processed

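Peak lists of Myc ChIP-seq from 2 parental and 2 TKO libraries were used, and 2 input libraries were not analysed here. Per the submitters' processing notes, reads were aligned to hg19 with Novoalign 3.08.02 and peaks called with MACS2 2.1.1.20160309, separately for each library, with inputs as controls; the study names a cutoff of 0.01, for the p-value in one place and for the q-value in another, and the lowest deposited -log10 q-values, from 2.03 to 2.07, lie just above the latter. How duplicate reads were treated is not given in the sources used here. The deposited columns are a score, the fold (ratio of summit pileup to local background) and -log10 p-value and q-value, all as the authors deposited them.

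Summits (peak start plus offset) were assigned to basic TSSs of GENCODE release 44 lifted to GRCh37 (55751 positions, 19785 genes, mitochondrial genes left out). Summit reads and depth were recovered by solving the MACS2 formulas for whole reads, assuming a genome size of 2700000000 bases, and in each list 100% of peaks matched within 0.002 on the -log10 scale. Sites are peaks of the 4 lists merged where they share at least 1 bp, each with the value of its strongest peak in a library. The sequence searches used GRCh37. Assignment and recovery were tested on simulated data.

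Libraries were compared by the exact two-sided permutation test over 6 splits, which cannot go below p = 0.333. Any full separation of the groups gives this value, whatever the size of the difference or the spread between libraries. No test was made over genes. The related gene lists and the members were chosen with earlier results of these data known. Named genes are members bound in both parental libraries, the 10 of highest mean percentile among those bound in both TKO and no parental library, members bound in no library, and members of related lists bound in both parental libraries or in none. Members bound in a single parental or a single TKO library, those near the 1 kb limit, and the summit windows of shared sites and of H1-4 fall outside this rule and were chosen after values were seen. Alternatives were other windows, thresholds, member lists, rankings and libraries left out. Python 3.11.15, pandas 2.3.3, scipy 1.17.1, pysam 0.24.0 and matplotlib 3.10.9 were used.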

Additional observations from a re-analysis of the deposited data

How the results depend on the processing

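Of 75 recomputed values, 63 stayed within the spread between libraries (counts: within 1.5 times), 10 moved further and 2 reversed. With equal numbers of peaks by fold, the TKO to parental ratio reversed for genes (0.250) and for peaks (0.286), 2 genes were bound in both parental libraries and 0 in both TKO libraries; the cause was not tested, beyond the lists being cut at a fold of 8.99 and 8.88 in TKO and of 2.40 and 4.62 in parental cells, and no percentile could be given because TKO replicate 1 kept no histone peak. With a 500 bp window the gene ratio was 10.3 and 2 genes were bound in both parental libraries. With a fold of at least 5 those numbers were 1 in both parental and 15 in both TKO libraries, the E-box share in TKO was 2.78%, and no shared histone site was left for a ratio of reads. The median percentile by p-value was 47.4 in place of 34.4. Leaving out each library in turn gave ratios of 4.94 to 7.90 for genes, 5.44 to 12.2 for peaks and 1.36 to 1.67 for reads at shared sites, 5 to 8 genes bound in the remaining parental library, 39 to 40 in the remaining TKO library, a percentile of 31.4 to 37.5 and an E-box share of 0% to 2.08%. With the replicate block the ratios were 6.24 for genes and 8.16 for peaks. Same-numbered libraries did not deviate together from site to site (correlation 0.0105 over 2631 shared sites). Such a correlation cannot show an offset common to all sites, so a shared batch was not tested. Leaving out the 8 members on repeated sequence, chosen after seeing the data, gave a gene ratio of 5.82. The depth of 13 M reads in TKO replicate 2 and 2 libraries per line limit all values.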

Other observations

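Within the clusters, 21 protein-coding genes that are no histone gene have a start site between the outermost histone start sites, and 3 and 4 of them were bound in parental and 11 and 10 in TKO libraries, where 12.2% and 12.9% and then 49.1% and 49.7% of all genes were. HMGN4, a nucleosome-binding protein gene, was bound in all 4, with a fold of 6.10, 7.15, 12.7 and 9.91. The unbound neighbours include SLC17A1, SLC17A2, SLC17A3 and SLC17A4, transporter genes, and TRIM38, which lie in the span of H2AC1, H2BC1 and H1-1, and also BTN1A1, BTN2A2, PRSS16 and POM121L2. Another, ENSG00000282988, lies within the unbound run of 12 histone genes. The E-box variant CACATG, searched on both strands within 50 bp of the summit, was found at 0 of 4 and 1 of 9 histone peaks (11.1%) in parental libraries and at 0 of 48 and 0 of 50 in TKO libraries. All promoter peaks held it at 6.88%, 6.79%, 4.57% and 3.79%.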
